A study of Mus musculus with 446 samples.

Results

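This account concerns genes whose response to a high-fat diet differed between liver and abdominal adipose tissue of the same mouse. For each gene the diet effect, high-fat minus control on a log2 scale, was taken in liver and in adipose tissue, and the adipose effect was subtracted from the liver effect. A mouse was used when its liver library had at least 8000 genes at 1 TPM or more (TPM is an abundance corrected for transcript length) and its adipose values summed to at least 50000 TPM. Mouse 80, whose liver library held muscle genes, was left out. Of the 73 control and 75 high-fat mice with both libraries, 52 and 57 were compared, which gives 218 of the 446 libraries of the study. Of the mice left out, 21 were control and 17 high-fat for a library under its minimum, besides mouse 80 on the high-fat diet. Nearest to the minimums, liver libraries had 7913 genes below and 8475 above, and adipose sums were 41010 and 54820 TPM.

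The animals were male Diversity Outbred mice. No 2 animals of this stock have the same genome, since each inherits its own mosaic of the founder strains. They were housed singly from 6 weeks of age on a control diet with 10 kcal% fat. At the start of the study they were randomized to stay on it or to change to a diet with 60 kcal% fat for 14 weeks. Liver and abdominal adipose pieces taken at necropsy were homogenized whole, so each library mixes the cell types of its tissue. Liver, skeletal muscle and adipose tissue were sequenced as stranded total RNA to study molecular variation among the mice. Genotypes of individual mice were not used here.

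Liver and white adipose tissue share the handling of surplus energy. Adipocytes store fatty acids as triglyceride and release them by lipolysis, while hepatocytes make, oxidize, store and export lipid. Obesity is known to bring macrophages into adipose tissue and fat into the liver, and insulin, glucocorticoids and nuclear receptors such as PPARG and RXRA act on both organs with different outcomes.

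The adipose table analysed here holds 2728 genes, of which 1796 passed the minimum of 1 scaled TPM in both tissues and were tested. Another 441 passed in adipose tissue alone, 43 in liver alone and 448 in neither. The adipose table holds 5 of 20 adipocyte genes, so most classical ones, Adipoq and Lep among them, were not analysed in adipose tissue. TPM keep no depth, and the depth of each library is unknown. Compared livers had 8829 to 14030 genes at 1 TPM or more. The adipose table took a median of 14.7% of TPM in control and 15.4% in high-fat mice, and its sum differed by diet (two-sided permutation p = 0.0157). The share of liver TPM on nuclear protein-coding genes had medians of 63.68% and 63.98% (permutation p = 0.716). The tissue labels were checked against markers. Alb, the liver's main plasma protein, ranged from 7268 to 59250 TPM in compared livers against 229.4 TPM in the library of mouse 80, where the muscle gene Ckm had 32990 TPM. In liver 12 of 20 adipocyte genes had a median under 1 scaled TPM, and 7 of them, Adipoq, Lep, Retn, Cfd, Plin1, Cidea and Adig, had a median of 0. In adipose tissue all 5 adipocyte genes of the table had a median above 1, and their summed level ranged from 2372 to 14310 with a median of 7435 scaled TPM in control and from 2103 to 8223 with a median of 5306 in high-fat mice.

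Diet effects differed between the tissues for 592 of 1796 genes (33%) by limma on the per-mouse difference, at an adjusted p under 0.05, which is what "called" means below. Of these, 298 (16.6%) had a more positive effect in liver and 294 (16.4%) a more negative one. On the same mice and genes, 767 genes (42.7%) were called by diet in adipose tissue and 244 (13.6%) in liver. The median absolute effect was 0.10 in adipose tissue and 0.06 in liver. Among the 592 genes, 376 were called in adipose tissue and not in liver, 63 in liver and not in adipose tissue, 68 in both in opposite directions, 13 in both in the same direction, and 72 in neither. A difference of at least 1 on the log2 scale was seen for 21 genes, 18 of them more negative in liver. Across genes the liver and adipose effects had Pearson's r = 0.0010 and Spearman's rho = -0.02, a description over 1796 genes measured in the same mice. The directions are relative to the scaled median of each tissue. With TPM as deposited the count was 257, of which 29 (11.3%) were more positive in liver, and the median adipose effect over all genes moved from -0.02 to 0.08. All 252 genes called both ways kept their sign. Liver effects depended most on the scaling. Of 39 called liver effects among the genes named here, those of Acaca, Aldh3a2, Ccl9, Dusp6, Mogat1, Pdk1, Pltp and Tlcd1 were also called with TPM as deposited, and the other 31 were not. Of 74 called adipose effects 63 were called both ways.

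**Figure D1:**
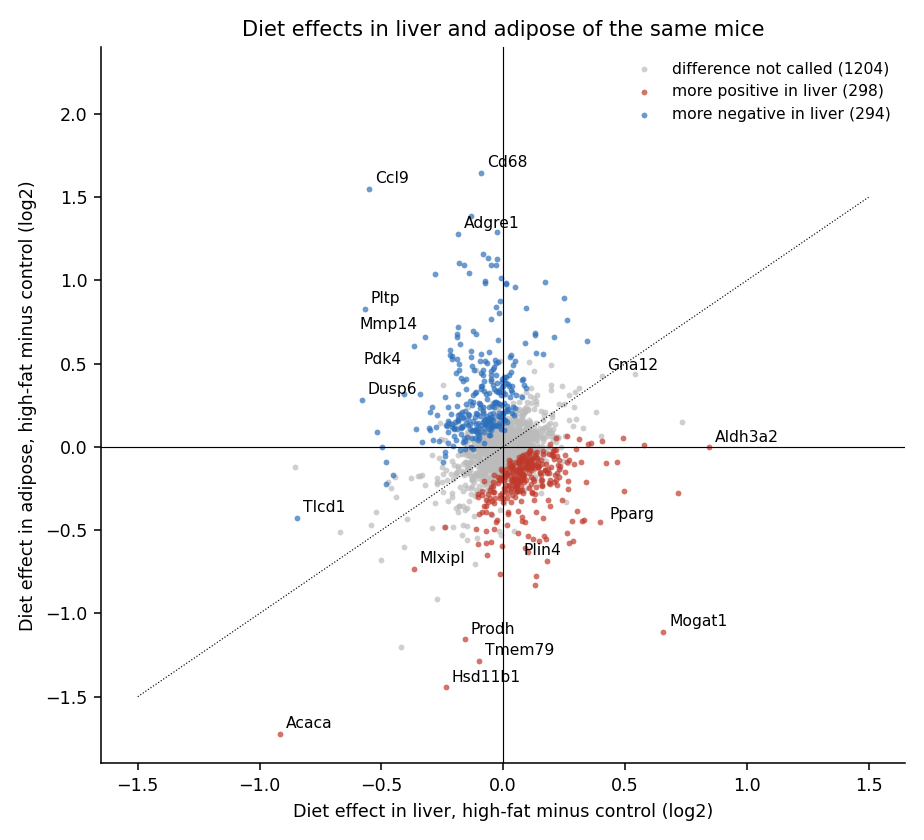
Each point is 1 of the 1796 genes tested, placed by its diet effect in liver (x axis, log2 of scaled TPM + 1, high-fat minus control, 52 control and 57 high-fat mice) and in adipose tissue (y axis, same unit and mice); red and blue points are the 298 and 294 genes whose 2 effects differed by limma, and on the dotted line the effects are equal. Macrophage genes such as Cd68 lie high near the vertical axis, Acaca lies low on both axes, and Mogat1 and Ccl9 lie in opposite corners.

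Immune genes had the largest differences more negative in liver. Ccl9 (ENSMUSG00000019122), a CC chemokine of myeloid cells, fell in liver and rose in adipose tissue. In liver it ranged from 17.5 to 115.5 with a median of 53.6 scaled TPM in control mice and from 11.2 to 87.5 with a median of 35.6 in high-fat mice. In adipose tissue the ranges were 16.7 to 441 with a median of 48.2 and 27.4 to 647 with a median of 174. The ranges overlapped in both tissues, but 48 of 57 high-fat livers did not exceed the control median and 54 of 57 high-fat adipose samples did. The diet effect was -0.55 ± 0.10 (SE) in liver and 1.55 ± 0.20 in adipose tissue, a difference of -2.10 ± 0.25 (limma adjusted p = 8.56e-11). Relative to the animal's own adipose level, the liver level was no higher than the median control in 54 of 57 high-fat mice. Ccl6, a related CC chemokine, had -0.03 ± 0.12 in liver (limma adjusted p = 0.916) and rose by 1.09 ± 0.19 in adipose tissue, a difference of -1.12 ± 0.21. How reads that fit several chemokine genes were assigned is not given in the sources used here.

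Cd68 (ENSMUSG00000018774), a lysosomal glycoprotein of macrophages, ranged in adipose tissue from 19 to 447 with a median of 43.5 scaled TPM in control and from 30.7 to 802 with a median of 180.4 in high-fat mice. In liver it ranged from 1.27 to 11.8 with a median of 3.59 and from 0.638 to 7.22 with a median of 3.06. The adipose groups overlapped, with 53 of 57 high-fat samples higher than the median control, and the liver groups covered nearly the same range. The effect was 1.65 ± 0.21 in adipose tissue and -0.09 ± 0.09 in liver (limma adjusted p = 0.558), and the difference was -1.74 ± 0.22 (limma adjusted p = 8.04e-10). In bulk tissue, more cells of a type and more RNA per cell cannot be told apart.

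Adgre1, the F4/80 surface receptor of macrophages, had a median of 29.3 scaled TPM in control and 76.7 in high-fat adipose tissue, and 4.82 and 3.62 in liver. Its difference was -1.47 ± 0.20 (limma adjusted p = 4.93e-09), and 54 of 57 high-fat adipose samples lay above the control median. Itgb2, the beta chain of leukocyte integrins, had the same pattern, with 1.39 ± 0.20 in adipose tissue, -0.13 ± 0.09 in liver and a difference of -1.52 ± 0.21. The NADPH oxidase subunits Cybb and Cyba rose in adipose tissue by 1.10 and 1.09, with differences of -1.29 ± 0.19 and -1.25 ± 0.18. All 57 high-fat adipose samples had more Cyba than the control median. Spi1, the myeloid transcription factor PU.1, and the hyaluronan receptor Cd44 had differences of -1.20 ± 0.19 and -1.25 ± 0.20. For none of these 6 genes from Adgre1 to Cd44 was the liver effect called, with values from -0.19 (Adgre1) to -0.06 (Spi1). Changes at low levels, such as those of Adgre1 in liver, are understated on the log2(scaled TPM + 1) scale. Cd52, a surface antigen of leukocytes, had a difference of -1.32 ± 0.34 (limma adjusted p = 0.00133), and its adipose level spread widely, from 12.9 to 5739 with a median of 40.5 in control and from 24 to 3964 with a median of 107.4 in high-fat mice.

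Of 5 tested genes on the macrophage list 3 were more negative in liver and none more positive, against 16.4% and 16.6% of all genes. Their median difference was -0.65, against 0.02 over all genes. Cd5l, a protein secreted by macrophages and the most abundant of the 5 in liver with a control median of 31.4 scaled TPM, rose in adipose tissue by 0.56 ± 0.19 from a median of 1.26. Its difference was -0.65 ± 0.22, and -0.51 (adjusted p = 0.0767, limma) without the 15 mice whose liver or adipose library held more than 100 TPM of muscle genes. The scavenger receptor Cd163 differed by 0.16 ± 0.12 (limma adjusted p = 0.304), and the lipase Lpl, which adipocytes make as well, by -0.13 ± 0.17 (limma adjusted p = 0.568). All 3 tested chemokine and leukocyte adhesion genes, Ccl9, Ccl6 and Itgb2, were more negative in liver, with a median of -1.52.

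Markers of blood cells were summed in the same libraries. The summed level of 6 macrophage markers of the adipose table other than Lpl ranged from 62.03 to 660.9 scaled TPM with a median of 122.9 in control and from 80.08 to 1115 with a median of 302.5 in high-fat adipose tissue, where Clec4f had a median of 0. In liver the same sum had medians of 82.8 and 76.7, within 28.03 to 238.2 and 33 to 152.1. The 5 lymphocyte markers of the adipose table, Cd3g, Lck, Cd79a, Il7r and Nkg7, summed to a median of 10.7 scaled TPM (2.58 to 41.1) in control and 19.4 (5.6 to 71.5) in high-fat adipose tissue. Il7r, the interleukin 7 receptor, had medians of 1.601 and 9.534 scaled TPM, while Cd3g had 1.88 and 1.86, Lck 2.17 and 2.34, Cd79a 1.40 and 1.78 and Nkg7 1.78 and 1.80. The 3 neutrophil markers of the adipose table, Mmp9, Elane and Mpo, summed to a median of 3.10 in control and 1.65 in high-fat adipose tissue. The members differed, with medians of 2.30 and 1.04 for Mmp9, 0.68 and 0.19 for Elane, and 0 and 0.116 for Mpo. No lymphocyte or neutrophil marker of the adipose table reached the minimum in liver, where 16 of 17 lymphocyte markers had a median under 1. Without a filter on low values, 1 of the 5 lymphocyte markers was more negative in liver, against 15.5% of all 2678 genes then tested. The part of cell numbers in the differences was not tested.

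The promoters of Ccl9 and Cd68 are shown because these genes had the most negative differences. Each run has 300 bases, 250 before and 50 after the RefSeq start on GRCm38.p6, written 5′ to 3′ on the gene's strand. Ccl9 is at chr11:83578587-83578886 and Cd68 at chr11:69666121-69666420, both on the minus strand. Capitals mark matches on either strand to the nuclear receptor half-site AGGTCA, the ETS and PU.1 core GAGGAA, the CCAAT box CCAAT or the TATA box TATAAA.
Ccl9: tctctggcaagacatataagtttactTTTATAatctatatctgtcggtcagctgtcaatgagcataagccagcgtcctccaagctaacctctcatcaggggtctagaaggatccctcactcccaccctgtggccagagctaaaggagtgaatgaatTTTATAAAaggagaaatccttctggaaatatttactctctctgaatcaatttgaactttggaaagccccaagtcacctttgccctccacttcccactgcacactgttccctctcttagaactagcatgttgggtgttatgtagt
Cd68: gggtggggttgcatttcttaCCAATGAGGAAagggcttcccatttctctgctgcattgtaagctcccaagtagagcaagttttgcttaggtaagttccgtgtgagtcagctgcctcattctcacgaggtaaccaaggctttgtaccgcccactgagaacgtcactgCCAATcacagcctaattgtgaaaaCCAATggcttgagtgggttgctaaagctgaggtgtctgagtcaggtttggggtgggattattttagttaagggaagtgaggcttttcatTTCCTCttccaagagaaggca
The Ccl9 window held 3 TATAAA matches, 2 of which overlap on opposite strands. The Cd68 window held 2 GAGGAA and 3 CCAAT matches, 1 of each adjoining. Of 32851 mouse promoters of this length in the table, 16.3% held AGGTCA, 28.3% GAGGAA, 37.4% CCAAT and 13.6% TATAAA. A match describes letters and shows no bound factor.

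Lysosomal genes were more negative in liver in 7 of 11 cases and more positive in none, with a median difference of -0.46. In adipose tissue 9 of the 11 rose (20.7% of all genes rose). Ctsa, the protective protein cathepsin A, fell in liver (-0.19 ± 0.04) and rose in adipose tissue by 0.66 ± 0.10. Its median went from 50.4 to 43.8 scaled TPM in liver and from 121.6 to 184 in adipose tissue, a difference of -0.85 ± 0.12 (limma adjusted p = 3.98e-08). The cathepsin Ctsz differed by -0.82 ± 0.14, with an uncalled liver effect of -0.12 ± 0.05 (limma adjusted p = 0.0731). Atp6v1b2, a subunit of the proton pump that acidifies lysosomes, differed by -0.51 ± 0.10, with liver medians of 11.1 and 11.9 scaled TPM and an uncalled liver effect of 0.03 ± 0.04. Cd68 is counted on this list as well. Hmox1, the inducible heme oxygenase, rose in adipose tissue by 0.99 ± 0.15 and had 0.17 ± 0.09 in liver, a difference of -0.82 ± 0.17.

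Matrix genes also responded mainly in adipose tissue. Of 11 tested, 6 were more negative in liver and none more positive, with a median of -0.28. In adipose tissue 6 rose and in liver 1 fell (6.9% of all genes fell in liver). The member that fell was Mmp14, a membrane-bound collagenase. Its liver values ranged from 4.13 to 11.7 with a median of 6.96 scaled TPM in control and from 3.01 to 9.16 with a median of 5.71 in high-fat mice. Its adipose values ranged from 17.8 to 100.2 with a median of 34 and from 28 to 126.3 with a median of 55. Groups overlapped in both tissues, with 48 of 57 high-fat livers not above and 48 of 57 high-fat adipose samples above the control median. The effects of -0.32 ± 0.06 and 0.66 ± 0.10 gave a difference of -0.98 ± 0.12 (limma adjusted p = 1.17e-10). The fibrillar collagen Col1a1 and the collagen VI chains Col6a1 and Col6a2 differed by -0.66 ± 0.18, -0.53 ± 0.14 and -0.42 ± 0.14. Col1a1 had medians under 1 scaled TPM in liver on both diets, against 111.5 and 199 in adipose tissue. Of 4 tested fibroblast and adipocyte progenitor genes, the imprinted transcription factor Peg3 (-0.91 ± 0.17) and the proteoglycan Dcn (-0.28 ± 0.10) were more negative in liver and the growth factor Igf1 (0.29 ± 0.08) more positive. The Dcn call was lost in 4 of 15 alternative analyses, among them TPM as deposited, where the difference was -0.40 (limma adjusted p = 0.0684). Among cell cycle genes 2 of 12 in the adipose table reached the minimum in liver, and Rrm2, the small subunit of ribonucleotide reductase, was more negative there (-0.80 ± 0.15) while Mcm2, a subunit of the replicative helicase, had -0.24 ± 0.10 (limma adjusted p = 0.0634) and was called in 4 of 14 alternative analyses. Without a filter on low values 10 of the 12 were more negative in liver, and all 12 rose in adipose tissue, where 18.5% of the genes then tested rose.

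Genes of triglyceride storage mostly had the opposite pattern. Of 8 tested lipid droplet, lipolysis and triglyceride synthesis genes, 5 were more positive in liver and 1 more negative, with a median of 0.48. Among all genes 16.6% were more positive and 16.4% more negative. In liver 4 of the 8 rose (6.68% of all genes rose there) and 1 fell. In adipose tissue 1 rose and 6 fell (22% of all genes fell there). With TPM as deposited 2 were more positive in liver, 1 rose in liver and the median was 0.36. With a minimum of 5 scaled TPM only 4 could be tested, 2 more positive in liver and 1 more negative, with a median of 0.27. The 5 adipocyte genes of the adipose table, whose summed medians of 7435 and 5306 scaled TPM are given above, include Lpl, Lipe and Pparg, and the other 2 had lower adipose medians on the high-fat diet as well, Retn 1433 and 598.5 and Slc2a4 127.8 and 83.78. The part of adipocyte content in the adipose falls of storage and mitochondrial genes was not tested. The most positive difference among the genes tested belonged to Mogat1 (ENSMUSG00000012187), a monoacylglycerol acyltransferase that makes diacylglycerol. In liver it ranged from 0 to 3.46 with a median of 0.327 scaled TPM in control and from 0 to 13.8 with a median of 1.33 in high-fat mice, a low level on either diet. The control median lay under the minimum of 1 scaled TPM, so Mogat1 entered the test mainly through high-fat livers. Its entry and its liver rise are therefore not independent, and it could be tested in 13 of 15 alternative analyses. In adipose tissue it ranged from 4.6 to 67.8 with a median of 23.9 and from 1.42 to 31.3 with a median of 9.7. The control median was exceeded by 43 of 57 high-fat livers and by 6 of 57 high-fat adipose samples, with overlapping ranges. The effect was 0.66 ± 0.14 in liver and -1.11 ± 0.16 in adipose tissue, a difference of 1.77 ± 0.25 (limma adjusted p = 1.43e-08). On the log2(scaled TPM + 1) scale changes of weakly expressed genes such as liver Mogat1 are understated.

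Pparg (ENSMUSG00000000440), the nuclear receptor that directs adipocyte differentiation, behaved the same way at other levels. Liver values ranged from 0 to 7.14 with a median of 0.61 scaled TPM in control and from 0 to 6.08 with a median of 1.27 in high-fat mice. Like Mogat1, Pparg thus entered the test mainly through high-fat livers. Adipose values ranged from 87.7 to 356 with a median of 242 and from 64.5 to 340.5 with a median of 169.5. Both pairs of groups overlapped, with 46 of 57 high-fat livers and 9 of 57 high-fat adipose samples above the control median. Its effects of 0.40 ± 0.11 and -0.45 ± 0.10 differed by 0.85 ± 0.17 (limma adjusted p = 2.48e-05). The liver rise of Pparg was not called with TPM as deposited. Rxra, the partner receptor of PPARG and of other nuclear receptors, rose in liver by 0.23 ± 0.04 and fell in adipose tissue (-0.18 ± 0.07), a difference of 0.41 ± 0.09. The difference of Rxra was 0.29 with TPM as deposited (limma adjusted p = 0.209).

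Plin4, a coat protein of adipocyte lipid droplets, had a median of 1.16 and 1.48 scaled TPM in control and high-fat liver, against 1544 and 1086 in adipose tissue. It rose in liver (0.26 ± 0.08), fell in adipose tissue (-0.52 ± 0.13) and differed by 0.78 ± 0.14 (limma adjusted p = 8.97e-06). G0s2, an inhibitor of the triglyceride lipase ATGL, fell in adipose tissue (-0.44 ± 0.11), had 0.33 ± 0.18 in liver (limma adjusted p = 0.231) and differed by 0.77 ± 0.21. Lipe, the hormone-sensitive lipase, fell in adipose tissue (-0.45 ± 0.12) and differed by 0.53 ± 0.14. The differences of G0s2 and Lipe were 0.65 and 0.41 with TPM as deposited, no longer called (limma adjusted p = 0.0545 and 0.0831). Lpl fell in both tissues, with effects of -0.52 ± 0.14 in liver and -0.39 ± 0.10 in adipose tissue, and its difference was not called.

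**Figure D2:**
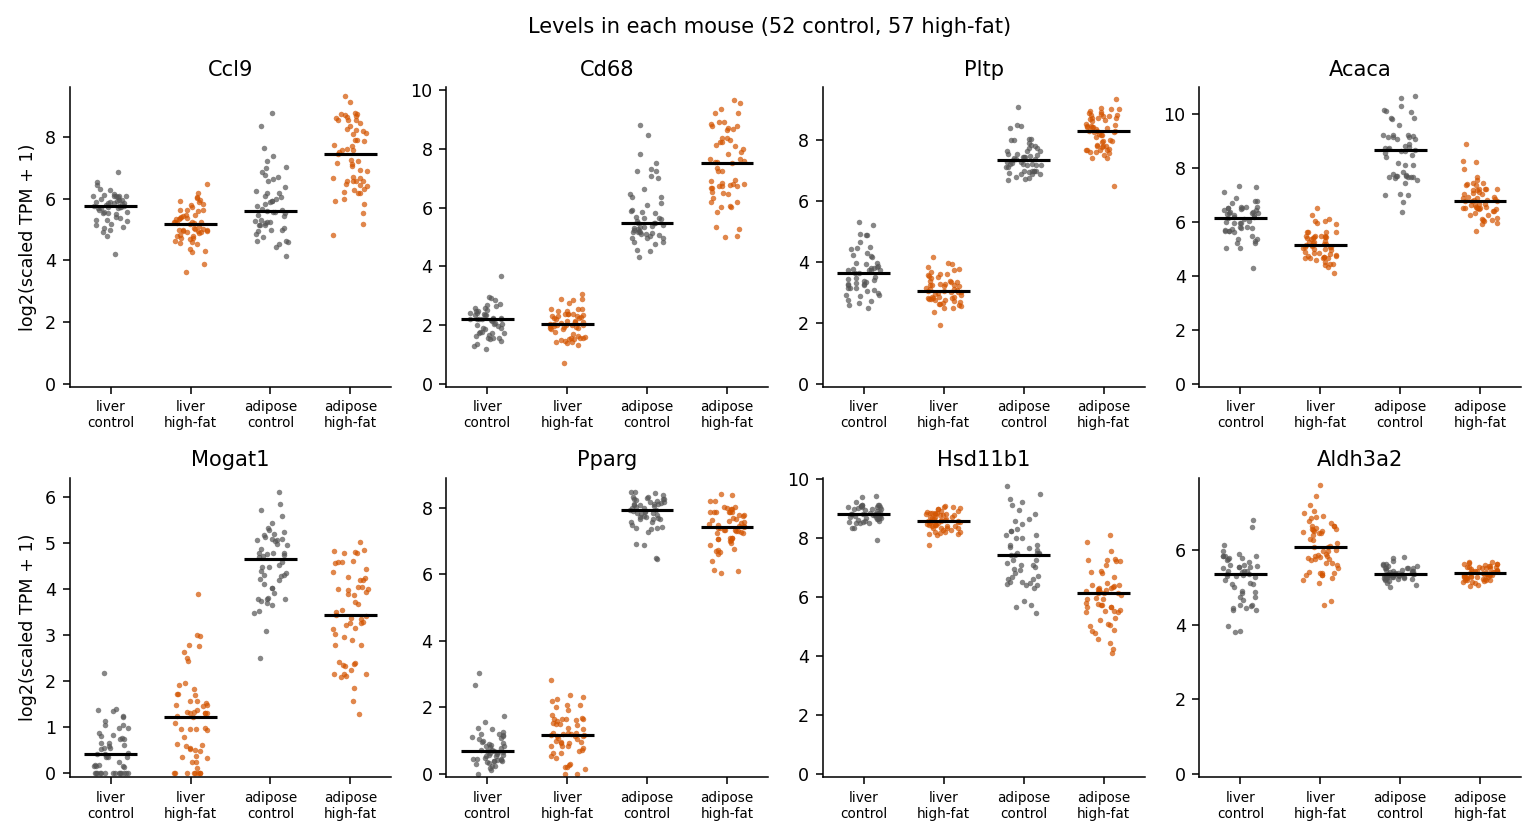
Levels of 8 genes in every mouse compared, on the log2(scaled TPM + 1) scale (y axis), in liver and adipose tissue of 52 control (grey) and 57 high-fat mice (orange); each point is 1 mouse and black bars are group medians. Ccl9 and Pltp go down in liver and up in adipose tissue, Mogat1 and Pparg go up in liver and down in adipose tissue, Acaca goes down in both, and Aldh3a2 moves in liver alone.

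The promoters of Mogat1 and Plin4 are given for comparison with those of the immune genes, in the same form and with the same motifs in capitals. Mogat1 is at chr1:78510810-78511109 on the plus strand and Plin4 at chr17:56109733-56110032 on the minus strand of GRCm38.p6.
Mogat1: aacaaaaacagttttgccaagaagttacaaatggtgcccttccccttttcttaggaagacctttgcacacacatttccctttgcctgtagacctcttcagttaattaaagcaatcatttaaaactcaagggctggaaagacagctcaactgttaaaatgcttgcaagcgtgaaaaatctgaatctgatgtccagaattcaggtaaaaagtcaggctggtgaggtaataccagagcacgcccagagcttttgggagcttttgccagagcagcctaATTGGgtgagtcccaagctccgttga
Plin4: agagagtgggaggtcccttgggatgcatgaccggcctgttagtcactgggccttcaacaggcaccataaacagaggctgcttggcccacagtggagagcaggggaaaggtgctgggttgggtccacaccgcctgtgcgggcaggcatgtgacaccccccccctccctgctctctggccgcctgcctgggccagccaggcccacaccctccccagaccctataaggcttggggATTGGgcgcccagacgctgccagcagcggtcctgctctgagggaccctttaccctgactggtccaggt
Each window held 1 CCAAT match on the opposite strand, seen as ATTGG, and none of the other 3 motifs in these letters. AGGTCA was in none of the 4 windows.

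Several enzymes and transporters fell far more in adipose tissue than in liver. Hsd11b1 (ENSMUSG00000016194), which regenerates active glucocorticoid, ranged in adipose tissue from 43.1 to 857 with a median of 171 scaled TPM in control and from 16.1 to 273 with a median of 69.6 in high-fat mice. In liver it ranged from 240.5 to 688 with a median of 444 and from 215 to 542 with a median of 379. It fell in both tissues, with effects of -1.44 ± 0.18 in adipose tissue and -0.24 ± 0.05 in liver, with 3 of 57 high-fat adipose samples and 15 of 57 high-fat livers above the control median. These effects differed by 1.21 ± 0.18 (limma adjusted p = 9.73e-08). Prodh, the first enzyme of proline breakdown, fell in adipose tissue from a median of 42.5 to 14.9 scaled TPM and had -0.16 ± 0.08 in liver, a difference of 1.00 ± 0.15. Tmem79, a membrane protein best known from the epidermis, had a difference of 1.19 ± 0.16, and 3 of 57 high-fat adipose samples exceeded the control median. Slc22a18, an imprinted transporter, fell in adipose tissue (-0.83 ± 0.11) and rose slightly in liver (0.13 ± 0.04), a difference of 0.96 ± 0.12. Slc5a6, the transporter of biotin and pantothenate, and Uck1, a uridine-cytidine kinase, had differences of 0.85 ± 0.13 and 0.85 ± 0.14, rising in liver and falling in adipose tissue. Perp, a junction protein, had 0.87 ± 0.27 and lost its call with TPM as deposited (adjusted p = 0.0719, limma). Of the 5 tested glucocorticoid and retinoid genes, Hsd11b1 and Rxra were the 2 called.

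Other genes had their called effect in liver. Aldh3a2 (ENSMUSG00000010025), the microsomal fatty aldehyde dehydrogenase, rose in liver by 0.85 ± 0.13, from a median of 40.2 to 67 scaled TPM. Its adipose medians were 40.2 and 40.9, with an effect of -0.0032 ± 0.03 (limma adjusted p = 0.947). The difference was 0.85 ± 0.13 (limma adjusted p = 2.16e-07), and 49 of 57 high-fat livers lay above the control median, with overlapping ranges. Sult5a1, a sulfotransferase, rose in liver by 0.72 ± 0.24 and had -0.28 ± 0.14 in adipose tissue (limma adjusted p = 0.0893), a difference of 1.00 ± 0.25. Acadvl, the very-long-chain acyl-CoA dehydrogenase of mitochondria, rose in liver by 0.17 ± 0.04 and differed by 0.31 ± 0.09, or by 0.19 with TPM as deposited (limma adjusted p = 0.497).

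Genes of fatty acid synthesis fell in both tissues. Of 6 tested, 5 fell in liver and 5 in adipose tissue (22% of all genes fell there), and 2 fell less in liver than in adipose tissue on the log2 scale. With TPM as deposited 1 fell in liver and 4 in adipose tissue, with list medians of -0.40 and -0.35 beside -0.38 and -0.45. Acaca (ENSMUSG00000020532), the carboxylase that makes malonyl-CoA, ranged in liver from 18.8 to 163 with a median of 70.8 scaled TPM in control and from 16.4 to 90.3 with a median of 34.2 in high-fat mice. In adipose tissue it ranged from 81.4 to 1641 with a median of 405 and from 49.6 to 478 with a median of 110.2. Only 2 of 57 high-fat livers and 1 of 57 high-fat adipose samples exceeded the control median, though the ranges overlapped. The effects of -0.92 ± 0.11 and -1.73 ± 0.16 differed by 0.81 ± 0.21 (limma adjusted p = 0.00126). Mlxipl, the glucose-responsive transcription factor ChREBP, fell in both tissues (-0.37 ± 0.05 in liver and -0.73 ± 0.12 in adipose tissue), a difference of 0.37 ± 0.13 that was 0.25 with TPM as deposited (adjusted p = 0.409, limma). The citrate carrier Slc25a1 fell in both tissues without a called difference (0.30 ± 0.15).

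Of 7 fatty acid oxidation genes 1 was more positive in liver, Acadvl, and 1 more negative, Pdk4, near the 16.6% and 16.4% of all genes. In liver 4 of the 7 rose (6.68% of all genes) and 1 fell, and in adipose tissue 3 rose (20.7%) and none fell. With TPM as deposited none rose in liver and 4 rose in adipose tissue, and the list's median of 0.10 became -0.02. Pdk4, a kinase that shuts down pyruvate dehydrogenase when fat is burned, fell in liver (-0.36 ± 0.12) and rose in adipose tissue by 0.61 ± 0.18. Its liver medians were 2.08 and 1.55 scaled TPM and its adipose medians 35.8 and 65.5. The difference was -0.97 ± 0.22 (limma adjusted p = 0.000193). The liver fall of Pdk4 lost its call over all mice with both libraries and with TPM as deposited (-0.39 and -0.38). Etfb, the beta chain of the electron transfer flavoprotein, rose in liver by 0.26 ± 0.07, and its difference of 0.19 ± 0.11 was not called.

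Genes called in both tissues in opposite directions numbered 68 (3.79% of all genes), 36 up in liver and down in adipose tissue and 32 the other way. The difference was called for all 68, which called effects of opposite sign in the same mice make nearly certain. With TPM as deposited 0.334% were called in opposite directions, and 1.06% of genes were then called in liver. Pltp (ENSMUSG00000017754), the phospholipid transfer protein of plasma lipoproteins, had the smallest adjusted p of the 68. Its liver values ranged from 4.63 to 38.6 with a median of 11.3 scaled TPM in control and from 2.82 to 17 with a median of 7.29 in high-fat mice. Its adipose values ranged from 100.7 to 538 with a median of 162 and from 88.7 to 654 with a median of 313. The ranges overlapped, with 50 of 57 high-fat livers not above and 56 of 57 high-fat adipose samples above the control median. Relative to its own adipose level, the liver level was no higher than the median control in 56 of 57 high-fat mice. The difference was -1.40 ± 0.15 (limma adjusted p = 4.99e-13), from -0.57 ± 0.11 in liver and 0.83 ± 0.10 in adipose tissue.

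Dusp6, a phosphatase that switches off ERK, fell in liver from a median of 22.4 to 13.9 scaled TPM and rose in adipose tissue from 27 to 33.3. Its difference was -0.86 ± 0.11 (limma adjusted p = 8.04e-10). Gna13, a G protein alpha subunit, and Rack1, a scaffold on the small ribosomal subunit, had smaller opposite effects, with differences of -0.41 ± 0.05 and -0.38 ± 0.06. Hlf, a PAR bZIP transcription factor downstream of the circadian clock, rose in liver by 0.32 ± 0.07 and fell in adipose tissue (-0.44 ± 0.14), a difference of 0.77 ± 0.15. Cry1, the other clock gene tested, had -0.13 ± 0.07 (limma adjusted p = 0.157).

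**Figure D3:**
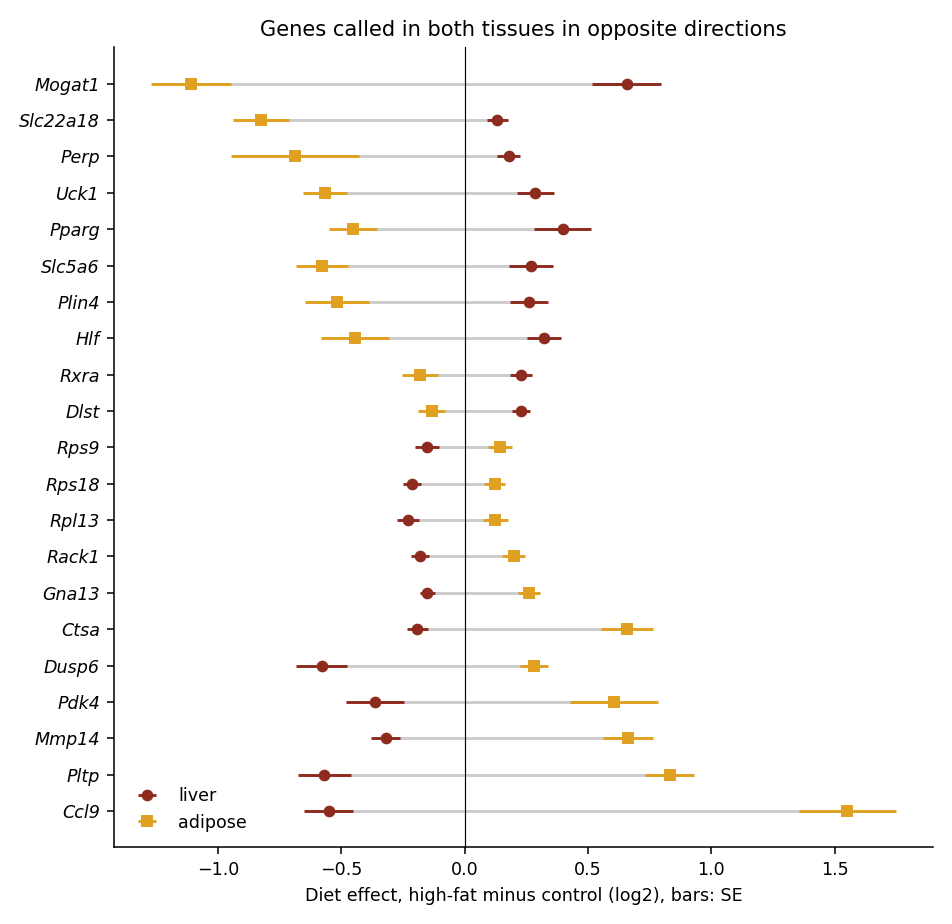
Diet effects (x axis, log2 of scaled TPM + 1, high-fat minus control) in liver (circles) and adipose tissue (squares) for 21 of the 68 genes called in both tissues in opposite directions, with SE bars over 52 control and 57 high-fat mice and 1 row per gene. From Mogat1 at the top to Dlst the liver rose and adipose tissue fell, and from Rps9 down to Ccl9 the directions are exchanged.

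Ribosomal protein genes moved by small amounts in a uniform way. Of 13 tested, 12 were more negative in liver and none more positive, with a median of -0.30. In liver 7 fell and none rose, and in adipose tissue 10 rose and none fell, so 7 were called in opposite directions. Of all genes 16.4% were more negative in liver, 6.9% fell in liver and 20.7% rose in adipose tissue. Opposite directions were called for 3.79%. Rpl13 had a median of 213 and 183 scaled TPM in liver and 509.9 and 570.2 in adipose tissue, a difference of -0.36 ± 0.06 (limma adjusted p = 6.42e-07). The differences of Rps18 and Rps9 were -0.33 ± 0.05 and -0.30 ± 0.06. With TPM as deposited 8 of the 13 were more negative in liver, the median was -0.42, and no liver effect was called. Reads of ribosomal protein genes can also fit near-identical copies, which makes these levels uncertain.

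Mitochondrial genes differed in the other direction. Of 18 nuclear electron transport genes 6 were more positive in liver and none more negative, with a median of 0.14. Among all genes 16.6% were more positive and 16.4% more negative. In adipose tissue 14 of the 18 fell and in liver 2, against 1 and none with TPM as deposited. Of all genes 22% fell in adipose tissue and 6.9% in liver. Among the 6 were the complex I subunits Ndufa1 (0.28 ± 0.07), Ndufs3 (0.19 ± 0.06) and Ndufa9 (0.18 ± 0.06). Of 11 citrate cycle genes 5 were more positive in liver and 1 more negative, with a median of 0.20. They included the 2-oxoglutarate dehydrogenase subunits Dlst (0.36 ± 0.06) and Ogdh (0.33 ± 0.07), the isocitrate dehydrogenase subunit Idh3g (0.28 ± 0.08) and the malate dehydrogenase Mdh2 (0.26 ± 0.09). Dlst rose in liver by 0.23 ± 0.04 and fell in adipose tissue (-0.13 ± 0.05). No difference on either list was called with TPM as deposited, and the medians were then 0.02 and 0.08 beside -0.09 over all genes. Dbt, the core subunit of the branched-chain keto acid dehydrogenase, fell in adipose tissue (-0.40 ± 0.09) and differed by 0.42 ± 0.09, or 0.30 without a call with TPM as deposited.

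**Figure D4:**
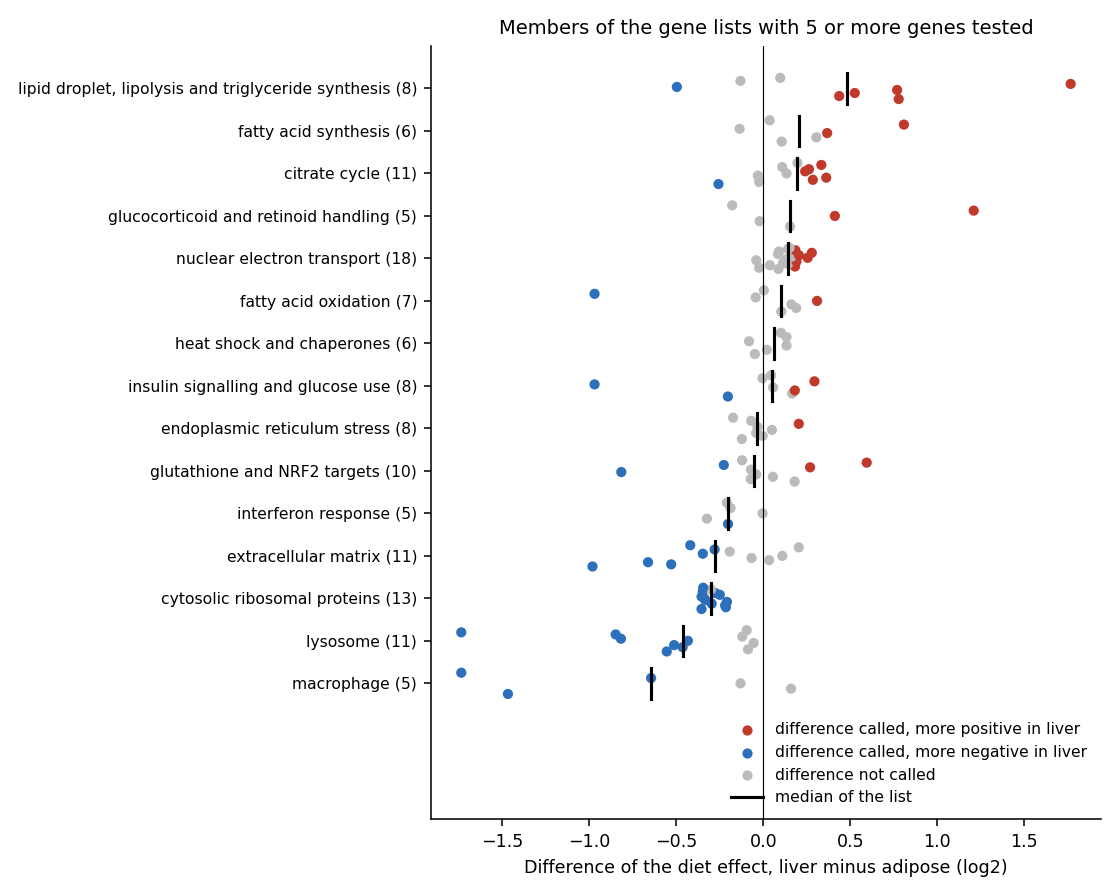
Difference of the diet effect, liver minus adipose (x axis, log2), for members of the 15 gene lists with 5 or more genes tested; each point is 1 gene, the number tested is in brackets, red and blue points were called, grey points were not, and black bars are list medians. The medians of the macrophage, lysosomal, ribosomal and matrix lists lie to the left of 0, and 6 of 8 lipid droplet members lie to the right.

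Insulin signalling and antioxidant genes had calls in both directions. Of all genes 16.6% were more positive and 16.4% more negative in liver. Of 8 insulin signalling and glucose genes, 2 were more positive in liver, Igf1 and the insulin receptor Insr (0.18 ± 0.07), and 2 more negative, Pdk4 and the kinase Akt1 (-0.20 ± 0.06). The list's median of 0.05 became -0.07 with TPM as deposited, where Igf1, Insr and Akt1 were not called. Of 10 glutathione and NRF2 genes, the plasma peroxidase Gpx3 (0.59 ± 0.17) and the transferase Mgst1 (0.27 ± 0.10) were more positive in liver, and Hmox1 and the transcription factor Nfe2l2 (-0.23 ± 0.07) more negative. The calls of Insr and Mgst1 were lost in 7 and 5 of 15 alternative analyses. With TPM as deposited the calls of Gpx3 (0.46), Mgst1 (0.15) and Nfe2l2 (-0.35) were lost, the last with a larger difference. Of 4 hepatocyte genes the apolipoprotein Apoe (0.46 ± 0.11) and the copper oxidase Cp (0.48 ± 0.13) were more positive in liver, with adipose effects of -0.50 ± 0.10 and -0.58 ± 0.12, and neither was called with TPM as deposited.

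Other lists held few calls. No endothelial gene of 4 was called, with Pecam1 at -0.08 ± 0.08 (limma adjusted p = 0.43) and Ptprb at 0.20 ± 0.08 (limma adjusted p = 0.0582). None of 6 heat shock genes was called, and Hspa8, a constitutive chaperone that rose in liver, had 0.13 ± 0.10 (limma adjusted p = 0.289). Neither cholesterol gene was called, with Cyp51 at -0.25 ± 0.19 and Mvd at -0.05 ± 0.18. Among 8 endoplasmic reticulum stress genes Xbp1 was called (0.20 ± 0.08), and Calr, a chaperone of that compartment, had -0.12 ± 0.08. Among 5 interferon genes Trim25 was called (-0.20 ± 0.08). The calls of Xbp1 (adjusted p = 0.0485, limma) and Trim25 (adjusted p = 0.0477, limma) lie close to the threshold. They were lost in 10 and 8 of 15 alternative analyses, among them the fit without the mouse as block and the fit by duplicateCorrelation. Lymphocyte, neutrophil, erythrocyte, skeletal muscle, mesothelial, epididymis and pancreas lists had no member that reached the minimum in both tissues, and the nerve list had 1 member without a call.

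Shared responses were about as frequent as opposite ones: 64 genes (3.56%) were called in both tissues in the same direction, and the difference was called for 13 of them. Gna12, a G protein alpha subunit, rose by 0.40 ± 0.05 in liver and 0.43 ± 0.07 in adipose tissue, with a difference of -0.02 ± 0.08 (limma adjusted p = 0.848). Most animals took part, with 53 of 57 high-fat livers and 52 of 57 high-fat adipose samples higher than the median control. Tlcd1, a membrane protein that acts on phospholipid composition, fell more in liver (-0.85 ± 0.08) than in adipose tissue (-0.43 ± 0.09), a difference of -0.42 ± 0.12, and 0 of 57 high-fat livers exceeded the control median. The Tlcd1 difference was -0.29 over all mice with both libraries (adjusted p = 0.0783, limma). The pyruvate dehydrogenase kinase Pdk1 (liver -0.67 ± 0.08, adipose tissue -0.51 ± 0.10) and the threonine-pathway enzyme Gcat (liver -0.41 ± 0.09, adipose tissue -0.60 ± 0.08) fell in both, without called differences. Adap2, a GTPase-activating protein for ARF proteins, and Slc25a13, the aspartate-glutamate carrier citrin, rose in both tissues and more in adipose tissue, with differences of -0.29 ± 0.10 and -0.45 ± 0.14. With a pseudocount of 5 the Slc25a13 difference was -0.17 (adjusted p = 0.117, limma).

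Adssl1, the muscle-type adenylosuccinate synthase, belongs to the large negative differences (-1.32 ± 0.21, limma adjusted p = 4.91e-07). It rose in adipose tissue from a median of 3.24 to 11.8 scaled TPM, with 53 of 57 mice above the control median, and had -0.02 ± 0.07 in liver. Muscle genes were present in some libraries. The 5 muscle markers of the adipose table summed to a median of 6.52 scaled TPM (3.35 to 348) in control and 6.97 (2.39 to 9083) in high-fat adipose tissue. Their sum was over 100 TPM in 10 adipose libraries, and that of 5 other muscle genes, Acta1, Ckm, Mylpf, Myh4 and Tnnt3, in 5 liver libraries. Without these 15 mice, 5 control and 10 high-fat, the Adssl1 difference was -1.23, an analysis added after seeing the data.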

How the data were processed

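The deposited values are TPM made by the authors, per the values themselves: they are not whole numbers, and liver and muscle columns sum to 1e+06 over 47643 genes. Trim Galore 0.4.4, Bowtie 1.2.2 and FastQC are listed, per the submitters' processing notes. The build, annotation and quantifier were not given in the sources used here. Adipose values came in a partial table, and 1 incomplete line was left out. Ensembl IDs were matched to GENCODE M21 symbols (99.93% in adipose tissue, 99.12% in liver). Promoters came from RefSeq (GRCm38.p6).

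Within each tissue, libraries were scaled by a trimmed mean of log ratios to the gene-wise median over protein-coding nuclear genes, leaving out Lars2 (0.3 of ratios and 0.05 of levels trimmed, 2713 genes in adipose tissue and 21606 in liver). A gene was tested where scaled TPM reached 1 in a number of libraries equal to 0.7 of the smaller of the diet groups, in both tissues. The per-mouse liver minus adipose difference of log2(scaled TPM + 1) was fitted by diet with limma 3.58.1 in R 4.3.3 (eBayes with trend and robust, two-sided, Benjamini-Hochberg, threshold 0.05), which makes the mouse the block, and each tissue was fitted alone. The script was tested on simulated data. Depth is unknown from TPM, so no counting intervals are given.

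Mouse numbers in the labels pair the tissues. Over 150 selected genes the best muscle match of a liver had its own number in 108 mice compared and not in 1 (median r = 0.842 against -0.01 for other numbers), and the best adipose match in 76 (median r = 0.311, and 0.09 over all 1796 genes). The labels of 6 compared livers carry a second number. Nothing else in the labels names a batch.

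Genes named were the 12 largest called differences in each direction among genes with a tissue mean of 5 scaled TPM or more, the 8 clearest called in both tissues in opposite and in the same direction, and up to 4 per gene list with the smallest p. Some genes that this rule names are not reported here. Members, lists and rule were chosen with earlier results of these data known. Alternatives changed the scaling, pseudocount, filter, mice, covariates, moderation and block, 1 at a time.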

Additional observations from a re-analysis of the deposited data

Results flagged for a closer look

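The diet effect differed between liver and adipose tissue of the same mice for 592 of 1796 genes by limma on the per-mouse difference, at an adjusted p under 0.05. Among the genes named, 21 were called by diet in both tissues with opposite signs, and are given with their difference (liver minus adipose, log2). The difference was called for each, which called effects of opposite sign in the same mice make nearly certain.

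The 11 with a fall in liver and a rise in adipose tissue included the chemokine Ccl9 (-2.10), the phospholipid transfer protein Pltp (-1.40), the collagenase Mmp14 (-0.98), the kinase Pdk4 (-0.97), the phosphatase Dusp6 (-0.86) and the lysosomal protein Ctsa (-0.85). The other 5 had smaller values, Gna13 (-0.41), Rack1 (-0.38), Rpl13 (-0.36), Rps18 (-0.33) and Rps9 (-0.30). A rise in liver and a fall in adipose tissue was seen for Mogat1 (1.77), Slc22a18 (0.96), Perp (0.87), Uck1 (0.85), Pparg (0.85), Slc5a6 (0.85), Plin4 (0.78), Hlf (0.77), Rxra (0.41) and Dlst (0.36). Of all these genes, only Ccl9, Pltp, Dusp6 and Mogat1 kept a called liver effect with TPM as deposited. Mogat1 and Pparg entered the test mainly through high-fat livers, so their entry and their liver rise are not independent.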

How the results depend on the processing

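The count of 592 genes stayed within 1.5 times under every alternative but TPM as deposited, where it was 257. Of these, 29 were more positive in liver. On that scale 1.06% of genes were called in liver, 0.334% in both tissues in opposite directions and 0.167% in the same direction. Over all mice with both libraries 8.32% were called in liver and 2.3% in opposite directions. Without a filter on low values 2.46% were called in opposite and 2.28% in the same directions, and with a minimum of 5 scaled TPM, where 1245 genes were tested, 184 genes were more negative in liver. Without the mouse as replicate block the count was 554, with 273 more positive in liver, and with the block fitted by duplicateCorrelation it was 587, with 291 more positive and a consensus correlation of 0.0609. The calls of Insr, Xbp1 and Trim25 were lost in both of these fits, and Ptprb was called with duplicateCorrelation. Both fits also share a variance between liver and adipose tissue, and the part of the pairing in these changes was not tested. In an alternative chosen after seeing the data, without 15 mice with muscle genes in a library, the count was 550.

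Of the 86 genes named, 25 lost their call with TPM as deposited and 1 gained it. Elsewhere at most 5 of the genes that could be tested lost it under a single alternative. With a minimum of 5 scaled TPM only 62 of the 86 could be tested, and none of these changed its call. Cd68, Mogat1 and Pparg were among those not tested there. Signs turned for genes without a called difference: Lpl had 0.050 with a pseudocount of 5, and Gna12 had 0.0022 with library quality covariates. The cause of these changes was not tested. Depth could not be used, since TPM do not hold it, and genes under the minimum in liver, such as most lymphocyte and cell cycle genes, were compared without a filter alone. The partial adipose table limits every statement here to the genes it holds.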

Other observations

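Some compared libraries held genes of neighbouring tissues. The 13 pancreas markers summed to a median of 22.6 scaled TPM in control and 28.2 in high-fat livers, with a highest value of 2903 in a high-fat liver. Cela1 made up nearly all of these medians (22.24 and 27.5), and 10 of the 13 had a median of 0, so the typical liver held few pancreas transcripts. In adipose tissue the epididymal and seminal list was represented by Svs4 alone, which had a median of 0 on both diets and a highest value of 88.03 scaled TPM in a control mouse. These libraries were kept.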
